A study of Mus musculus with 12 samples.

Results

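EGFR+ tumor cells sorted as PDGFRA- were compared with EGFR+ tumor cells sorted as GAL1+ by bulk RNA sequencing. Both populations were taken from the same 3 mouse glioblastomas (GBMs), named T3, T4 and T5, with 1 library per population and tumor. These are 6 of the 12 libraries of the series, and all 18180 genes listed for them were tested. The other 6 libraries hold the PDGFRA+ and the GAL1- cells of the same tumors. All tumors had one genotype: Cre delivered by a lentivirus injected into the brain switched on a human EGFR transgene and a luciferase reporter in adult mice of both sexes with engineered deletions that included Cdkn2a, on a mixed background (C57Bl/6J, 129S4, FVBN/J and Balb/cJ per the labels, with SJL added in the study's methods). Tumors were taken at end stage. The study's results describe the sorted EGFR+ cells as CD45-, but its methods for this sort name only antibodies against EGFR, PDGFRA and galectin-1. PDGFRA and GAL1 were stained separately, so a PDGFRA- cell may be GAL1+ or GAL1-, and the same kind of cell may be in both sorts. Reads were aligned to the mouse genome, and reads of the human transgene that aligned to mouse Egfr cannot be told apart from those of the mouse gene in the Egfr values below. The 6 libraries held between 9851175 and 17486645 reads, as recovered from the deposited log2 CPM (read counts scaled to a common library size).

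PDGFRA, the alpha receptor for platelet-derived growth factor, marks the precursor cells of oligodendrocytes in the normal brain. These precursors pass through a stage marked by Gpr17 and Enpp6 before they make myelin, under the control of transcription factors that include Olig2, Sox10, Nkx2-2 and Myrf. Galectin-1, the product of Lgals1, is a secreted sugar-binding protein made by mesenchymal-like tumor cells, endothelium and activated macrophages. GBMs also hold many microglia and macrophages, cells with abundant lysosomal enzymes, complement and receptors for microbial products. In bulk libraries, fewer cells of a type and less RNA per cell cannot be told apart.

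The genes of the sort and of the tumor genotype were examined first. Pdgfra was at 10.11, 8.62 and 7.36 log2 CPM in the PDGFRA- cells of T3, T4 and T5, and at 8.95, 6.74 and 7.05 in the GAL1+ cells. The PDGFRA- sort therefore had the higher value in each tumor, while the ranges of the 2 groups overlapped; the difference of 1.12 ± 0.41 (log2, SE, n = 3 tumors) did not pass limma's test (adjusted p = 0.0818). In the PDGFRA+ cells Pdgfra was at 10.81, 10.13 and 9.95, and the difference of PDGFRA- from PDGFRA+ cells was -1.60 (limma adjusted p = 0.249). Lgals1 was at 6.99, 6.98 and 7.34 log2 CPM in the PDGFRA- cells and at 7.95, 7.64 and 7.41 in the GAL1+ cells. All 3 GAL1+ libraries were above all 3 PDGFRA- libraries, with a difference of -0.56 ± 0.22 (limma adjusted p = 0.104), and in T5 the difference was only -0.07. Egfr was higher in PDGFRA- cells by 1.04 ± 0.32 (limma adjusted p = 0.0493), at 10.18, 10.02 and 8.16 against 9.02, 8.53 and 7.68. Ptprc, which encodes CD45, was present in all 6 libraries although the gate was set on CD45- cells. It was at 7.08, 6.65 and 8.66 log2 CPM in the PDGFRA- cells and at 8.21, 8.74 and 9.0 in the GAL1+ cells, a difference of -1.19 ± 0.37 (limma adjusted p = 0.0509). Cdkn2a reads, between 61.5 and 274.5 per library, were also found in all 6 libraries and were higher in PDGFRA- cells by 1.02 ± 0.24 (limma adjusted p = 0.0222). Counts over a whole gene can include reads of parts outside a deletion and of cells without it, so this value does not measure the deletion.

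**Figure D1:**
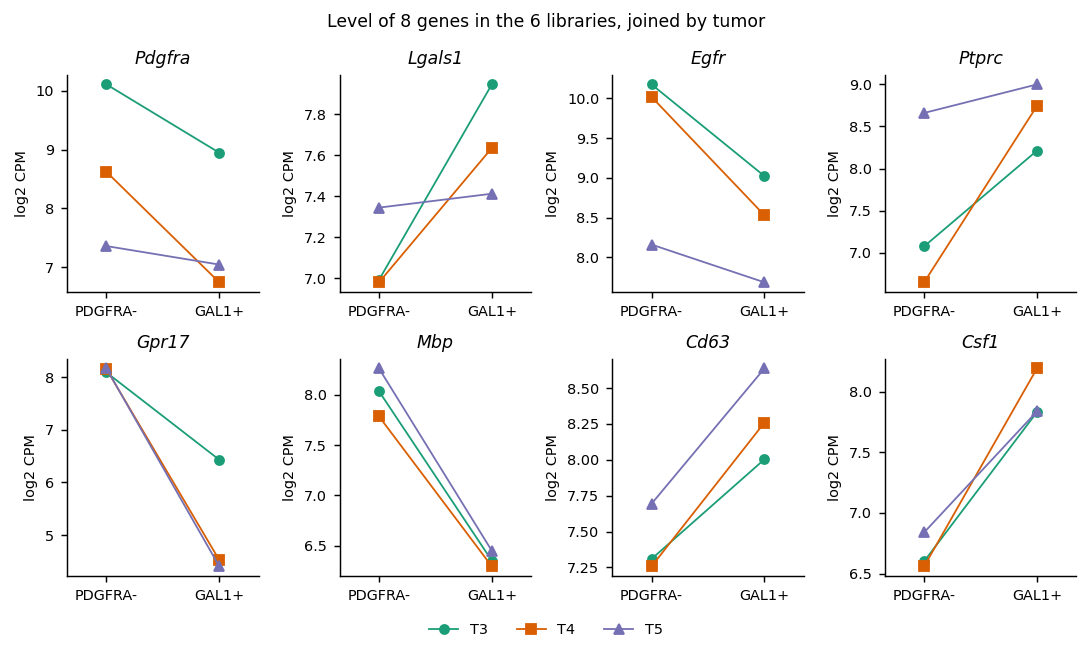
Levels of 8 genes in log2 CPM (vertical axes, each with its own range that does not start at 0) in PDGFRA- and GAL1+ cells, with 1 point per library and a line for each tumor. Gpr17 and Mbp were above their GAL1+ values in all 3 PDGFRA- libraries and Cd63 and Csf1 below them, while Lgals1 and Pdgfra differed least in T5 (by -0.07 and 0.31).

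Across all genes, 3652 of 18180 (20.1%) were called at an adjusted p under 0.05, 2395 of them higher in PDGFRA- cells (13.2% of all genes) and 1257 lower (6.91%). These shares are the background for the counts of every gene group below. The difference exceeded 2-fold for 1542 of the genes called higher and 502 of those called lower, and 4-fold for 186 and 31. The sign was the same in T3, T4 and T5 for 3642 of the called genes, against 52.4% of all genes tested. The calls rest on these same differences, so a shared sign among called genes is largely built in. Of the called genes, 2098 had no overlap between the 3 PDGFRA- and the 3 GAL1+ libraries, against 18.7% of all genes tested without overlap. The median difference over all genes was 0.03. When each library was centred on its median, all values moved down by 0.14, and the split of calls changed from 2395 higher and 1257 lower (65.6% higher) to 1920 higher and 2178 lower (46.9% higher).

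The 3 tumors did not contribute equally. Paired libraries differed per gene by a median of 0.400 (log2) for T3, 0.616 for T4 and 0.341 for T5, and 18.0%, 32.5% and 13.9% of genes differed by more than 2-fold. On the first principal component of the 6 libraries, which held 47.4% of the variance, the PDGFRA- library of T5 lay at -30.3, between the GAL1+ libraries (-2.90, -51.0 and -77.6), while its counterparts from T3 and T4 had scores of 73.3 and 88.5. Without T4, limma called 0 genes (3649 at an unadjusted p under 0.05), and without T3 it called 788. Without the PDGFRA- library of T5 it called 5837, and without the GAL1+ library of T4 it called 685. Without the tumor as a replicate block, 725 genes were called, 619 higher and 106 lower. No call below holds without T4, so the values of each tumor are given beside the groups.

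**Figure D2:**
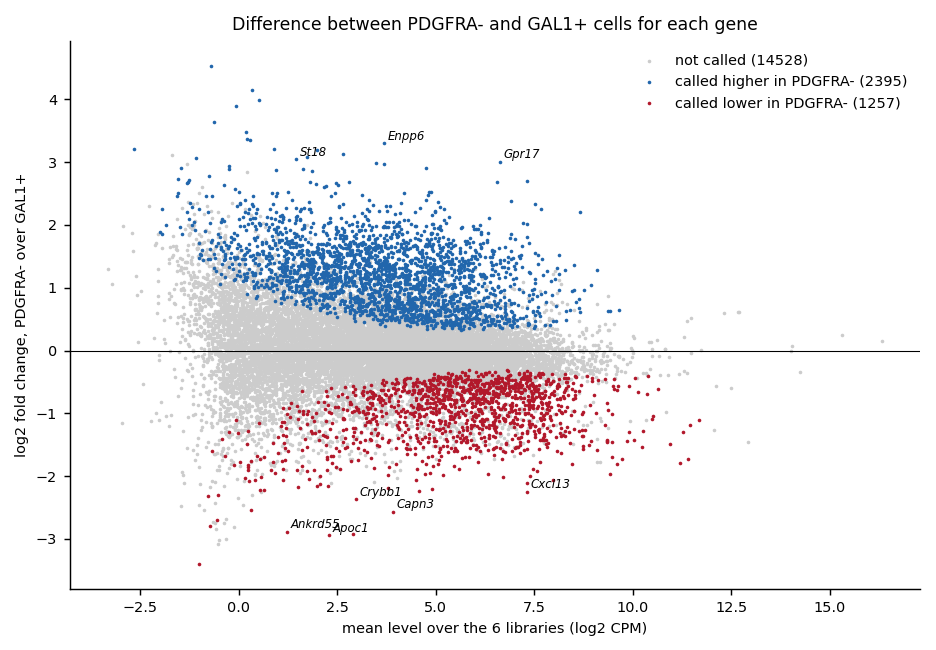
PDGFRA- minus GAL1+ difference on the log2 scale (vertical axis) against the mean level over the 6 libraries in log2 CPM (horizontal axis), with 1 point per gene. The 2395 genes called higher are in blue, the 1257 called lower in red and the 14528 not called in grey; 8 of the genes described in the text are named.

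Among well-covered genes with a symbol that is not a predicted one, the 8 with the largest positive differences were Enpp6, Fa2h, Kndc1, Map6d1, St18, Gpr17, Shisal1 and Neu4, with log2 fold changes from 2.97 to 3.30. Enpp6, a choline phosphodiesterase of newly formed oligodendrocytes, was at 5.28, 5.13 and 5.61 log2 CPM in PDGFRA- cells and at 2.79, 1.46 and 1.88 in GAL1+ cells, a log2 fold change of 3.30 ± 0.30 (limma adjusted p = 0.00411). Fa2h, which hydroxylates the fatty acids of myelin lipids, was at 3.61, 3.25 and 3.90 against 1.99, -0.57 and -0.24. Gpr17, a receptor of committed precursors, was at 8.09, 8.15 and 8.16 against 6.43, 4.53 and 4.41, so that the PDGFRA- libraries were nearly level and the GAL1+ library of T3 stood above the other two. Neu4, a sialidase, was at 5.08, 4.96 and 5.48 against 3.44, 1.46 and 1.71, and St18, a zinc finger transcription factor, at 1.89, 3.22 and 3.82 against 0.27, -1.19 and 0.73. For 7 of the 8 genes, all but St18, the GAL1+ library of T3 was the highest of its group. No GAL1+ library reached a PDGFRA- library in any of the 8, against 18.7% of all genes without overlap. The 8 were picked for large differences of the same sign in every tumor, so this lack of overlap is not separate evidence.

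The 8 largest negative differences were those of Apoc1, Apob, Ankrd55, Capn3, Crybb1, Cxcl13, Siglech and Cst7, with log2 fold changes from -2.94 to -2.20. Apoc1, an apolipoprotein of lipid-laden macrophages, was at 0.35, -0.13 and 2.26 log2 CPM in PDGFRA- cells and at 3.38, 3.69 and 4.23 in GAL1+ cells, a log2 fold change of -2.94 ± 0.65 (limma adjusted p = 0.0176). Siglech, a microglial lectin, was at 3.62, 2.41 and 4.34 against 4.74, 6.31 and 6.04. Cxcl13, a chemokine that attracts B cells, was at 6.94, 5.04 and 6.60 against 8.70, 8.72 and 7.92 (log2 fold change -2.26 ± 0.61, limma adjusted p = 0.0325). Cst7, an inhibitor of lysosomal proteases, was at 3.35, 3.10 and 4.99 against 4.91, 6.60 and 6.54, and here the PDGFRA- library of T5 lay above the GAL1+ library of T3. The calls of Apoc1, Capn3, Cst7 and Cxcl13 were kept in 11, 11, 11 and 9 of 19 alternative settings, and that of Enpp6 in 18 of 19.

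Genes of the oligodendrocyte lineage were higher in PDGFRA- cells. Of 15 transcription factors of the lineage, 15 were called higher and the median log2 fold change was 1.78, with medians of 1.30, 2.48 and 1.91 in T3, T4 and T5. Myrf, which switches on the myelin genes, was at 5.91, 6.08 and 6.60 log2 CPM in PDGFRA- cells and at 4.21, 2.39 and 3.28 in GAL1+ cells (2.90 ± 0.34, limma adjusted p = 0.00411). Nkx6-2, a homeodomain factor of late differentiation, had the largest change of the group (3.90 ± 0.61, limma adjusted p = 0.00708), but its GAL1+ libraries held only 7, 1 and 3 reads. Sox8 was at 6.13, 5.79 and 6.19 against 4.68, 2.85 and 3.14 (2.48 ± 0.33, limma adjusted p = 0.00506). Olig1, Olig2, Sox10 and Nkx2-2 were higher by 1.72, 1.95, 1.65 and 2.35, and Tcf4, which is expressed in many cell types, by 0.48. Of 15 precursor genes, which share 7 members with the transcription factors, 13 were called higher (median 1.77), among them Lhfpl3 (1.77), the chondroitin sulfate proteoglycan Vcan (1.32) and the receptor phosphatase Ptprz1 (1.28 ± 0.32). The 2 precursor genes not called were Pdgfra, described above, and Cspg4, which encodes NG2 (0.74). All 9 genes that the study lists under oligodendrocyte differentiation were called higher as well, with a median of 1.72; the study chose that list on these samples, so it is not independent evidence of the direction. Only 9 of the 15 transcription factors, 8 of the 15 precursor genes and 4 of these 9 were called higher without the tumor as a block, and without the GAL1+ library of T4 8, 10 and 4.

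Genes of myelin and of mature oligodendrocytes were called higher in 11 of 13 cases, with a median log2 fold change of 2.46. Unlike that of the precursor genes, their median was largest in T5, at 2.98, against 1.49 in T3 and 2.05 in T4. Mbp, myelin basic protein, was at 8.04, 7.79 and 8.26 log2 CPM in PDGFRA- cells and at 6.35, 6.30 and 6.45 in GAL1+ cells (1.66 ± 0.19, limma adjusted p = 0.00411). The SD was 0.24 within the PDGFRA- and 0.08 within the GAL1+ libraries (n = 3 each), less than the difference between them. Mog and Opalin, which are made late in differentiation, had the largest fitted changes (4.00 and 4.54), against GAL1+ libraries that held 14, 1 and 5 reads of Mog and 4, 0 and 2 of Opalin. Mag, Mobp, Cnp, Cldn11, Ermn and Ugt8a were higher by 1.86 to 2.52, and Mal (0.95) and Aspa (0.46) were not called. The number called was 11 also without the tumor as a block, 10 without T3, 11 without the PDGFRA- library of T5 and 9 without the GAL1+ library of T4, and 0 without T4.

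The mature genes were also set beside the PDGFRA+ cells. Their mean level was 4.32, 4.98 and 5.12 log2 CPM in the PDGFRA- cells of T3, T4 and T5, 2.81, 2.18 and 2.29 in the GAL1+ cells, 3.32, 2.89 and 3.32 in the PDGFRA+ cells and 3.25, 4.21 and 3.94 in the GAL1- cells. The PDGFRA- cells thus had the highest mean in each tumor. The precursor genes were ordered differently, with means of 7.17, 6.89 and 6.34 in PDGFRA- cells, 7.35, 6.97 and 7.04 in PDGFRA+ cells and 7.54, 7.51 and 7.69 in GAL1- cells, and the lowest means, 5.83, 4.36 and 4.35, in the GAL1+ sort. The median difference of PDGFRA- from PDGFRA+ cells was 1.82 over the mature genes and -0.44 over the precursor genes. No gene passed the test in that comparison (0 of 18180, or 0%, with limma, 2137 at an unadjusted p under 0.05, smallest adjusted p = 0.181). This difference between the gene groups therefore stands as a description. The study does report differentially expressed genes with terms enriched in PDGFRA- cells. Its limma fit used weights by read depth, while the fit here used the deposited values without weights. Such weights were not tried for this comparison. Mbp differed by 1.14 and Enpp6 by 1.99 between PDGFRA- and PDGFRA+ cells (limma adjusted p = 0.202 for each). Against the GAL1+ cells, the PDGFRA+ cells had 6900 genes called (38%), and against the GAL1- cells the PDGFRA- cells had 4200 called (23.1%); these comparisons share libraries with the one described here.

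**Figure D3:**
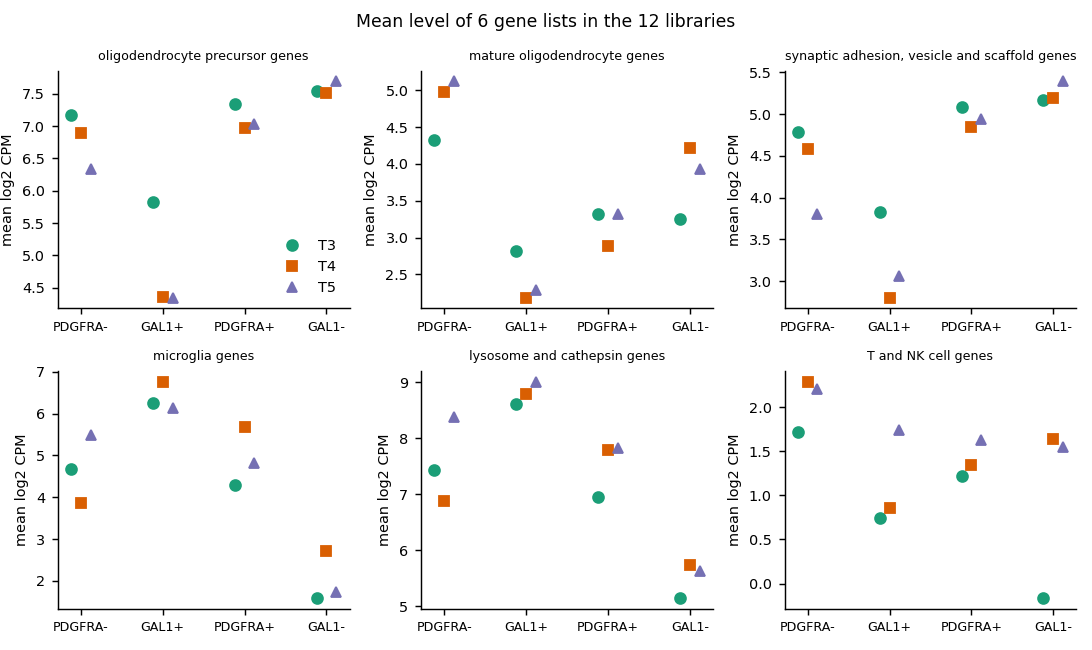
Mean level of 6 gene lists in log2 CPM (vertical axes, each with its own range) in the 12 libraries, 3 tumors for each of PDGFRA-, GAL1+, PDGFRA+ and GAL1- cells. Mature oligodendrocyte genes were highest in PDGFRA- cells (4.32 to 5.12), and of the 3 PDGFRA- libraries that of T5 lay nearest to the GAL1+ libraries for microglia genes (5.49) and lysosome genes (8.37).

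Genes of synapses and excitability were higher in PDGFRA- cells. Of 58 genes for synaptic adhesion, vesicles and scaffolds, 38 were called higher and 0 lower (median 1.38; 1.07, 1.90 and 1.08 by tumor). They included the neurexins Nrxn2 (1.87) and Nrxn3 (1.62), the neuroligins Nlgn1, Nlgn2 and Nlgn3 (1.72, 1.49 and 1.42) and the adhesion molecule Cadm2 (2.17 ± 0.40, limma adjusted p = 0.0105). Homer2, a scaffold of glutamate receptors, was at 3.41, 3.54 and 2.98 log2 CPM against 2.16, 1.61 and 1.94 (1.41 ± 0.20, limma adjusted p = 0.00621). Of 32 glutamate and GABA receptor genes, 17 were called higher and 0 lower. Gria2, an AMPA receptor subunit, was at 8.0, 8.08 and 7.27 against 7.0, 5.83 and 5.12 (1.80 ± 0.27, limma adjusted p = 0.00636), and the kainate receptor subunit Grik3 at 7.11, 7.10 and 6.11 against 5.91, 4.96 and 4.09. Of 40 voltage-gated and potassium channel genes, 29 were called higher, such as the sodium channel Scn1a (1.79 ± 0.28) and the calcium channel subunit Cacna2d2 (2.11 ± 0.43). Of the channel genes 1, Cacna1a, was called lower, at 6.10, 6.16 and 6.73 against 6.80, 7.05 and 7.08 (-0.64 ± 0.13, limma adjusted p = 0.0149). Many of these genes are also expressed by oligodendrocyte precursors. Of 9 genes more particular to neurons, 3 were called higher, namely Snap25 (1.87), Tubb3 (1.17) and Gad1 (1.13), 4 of the 9 had 3 reads or fewer in at least 1 of the 6 libraries, and their summed level was 66.8 to 99.6 CPM in PDGFRA- and 26.8 to 59.3 CPM in GAL1+ libraries; their part in the synaptic differences was not tested. Fewer were called higher without the tumor as a block, namely 19 synaptic, 5 receptor and 13 channel genes, and without the GAL1+ library of T4 18, 6 and 13.

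Genes that shape cell contacts and the matrix of neural tissue were grouped next. Of 40 axon guidance genes, 16 were called higher and 3 lower. Sema5a, a transmembrane semaphorin, was at 5.85, 5.87 and 6.14 log2 CPM against 4.39, 2.57 and 3.69 (2.40 ± 0.33, limma adjusted p = 0.00547), and Plxnb3 (2.12), Unc5c (1.98), Dcc (1.85) and Ephb1 (1.85) were also higher. The 3 called lower were Plxna4 (-0.44) and the neuropilins Nrp1 (-1.19) and Nrp2 (-1.10), co-receptors for semaphorins and VEGF that are also made by endothelium and myeloid cells. Of 11 non-clustered protocadherins, 8 were called higher (median 1.37), for example Pcdh7, at 7.03, 7.69 and 6.65 against 6.15, 5.93 and 4.82. Of 15 proteoglycan and perineuronal matrix genes, 9 were called higher, among them Tnr, tenascin-R, at 10.16, 9.74 and 9.37 against 8.73, 6.78 and 7.15 (2.20 ± 0.31, limma adjusted p = 0.00566), Acan (2.12) and Bcan (2.02). Among 22 collagen and laminin genes, the 3 called higher were Col9a1 (2.27), Col9a3 (2.21) and Col11a2 (2.53), collagens better known from cartilage, and the 1 called lower was Col6a3 (-1.11 ± 0.23), a collagen of fibroblasts; both shares are near the background of all genes. Of the matrix proteases and their inhibitors, Timp4 (1.93), Mmp15 (1.28) and Mmp16 (1.17) were higher and Timp2 (-0.87) and Mmp19 (-1.26) lower, 3 and 2 of 17. The numbers called higher fell to 8 for axon guidance, 2 for protocadherins and 5 for proteoglycans without the tumor as a block, and without the GAL1+ library of T4 to 8, 1 and 5.

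**Figure D4:**
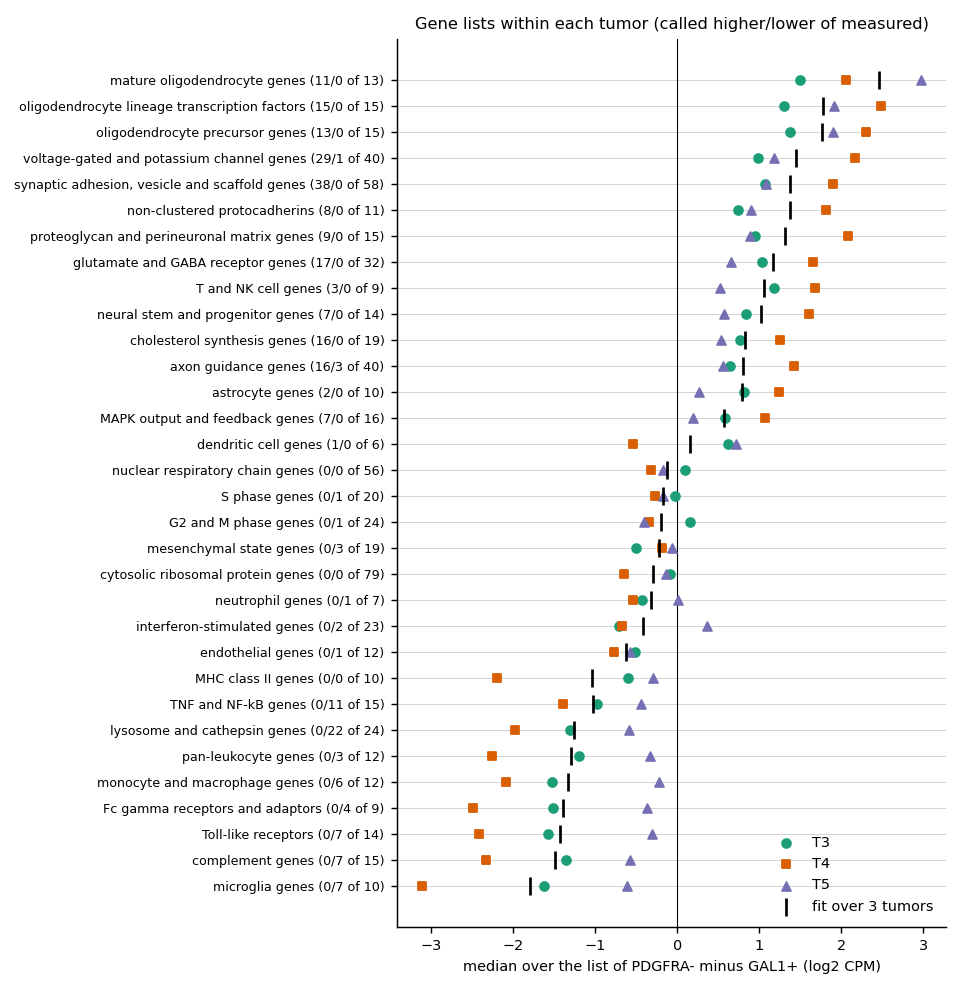
Median over each gene list of the difference PDGFRA- minus GAL1+ (log2 CPM, horizontal axis) within T3, T4 and T5 (symbols) and from the fit over the 3 tumors (bars), with the number called higher and lower of the genes measured. Microglia genes lay nearest to 0 in T5 (-0.62) and furthest from it in T4 (-3.11), while mature oligodendrocyte genes were furthest from it in T5 (2.98).

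Among growth factor pathways, Erbb4, a receptor for neuregulins, was at 5.61, 5.24 and 5.12 log2 CPM in PDGFRA- cells and at 4.61, 2.60 and 3.76 in GAL1+ cells (1.67 ± 0.32, limma adjusted p = 0.0122). Tgfa, a ligand of EGFR, was higher by 0.96. With Egfr these were the 3 of 13 genes of the EGFR family that were called. The other EGFR ligands measured, Egf (0.74), Hbegf (0.14), Areg (-0.47), Ereg (-0.64) and Btc (-1.01), were not called. Of 16 genes of MAPK output and feedback, 7 were called higher and 0 lower, including Spry1 (1.24 ± 0.26), Spry2 (1.18) and Spry4 (0.98), which restrain receptor signaling, Etv4 (1.04), Phlda1 (0.79) and Ccnd1 (0.83). Without the tumor as a block, 0 of these 16 were called, and without the GAL1+ library of T4 1 was. Pdgfb, a ligand of the PDGF receptors that endothelial cells and macrophages make, was the only one of 6 PDGF genes that was called, at 4.11, 3.80 and 5.40 against 5.61, 6.25 and 6.01 (-1.52 ± 0.37, limma adjusted p = 0.0246). Of 21 Notch pathway genes 4 were called higher and 2 lower, with a median of -0.12. The Notch ligands Dll1 (1.71 ± 0.29) and Dll3 (2.27 ± 0.58) and the list members Hey2 (1.55) and Hes6 (0.64) were higher, whereas Notch2 (-0.79) and Rbpj (-0.61) were lower. Of 12 Hedgehog pathway genes 2 were called higher and 0 lower, shares near the background of all genes, with a median of 0.32. Hhip, an inhibitor of Hedgehog ligands, was higher (3.37 ± 0.96, limma adjusted p = 0.0380), with 12, 0 and 19 reads in the GAL1+ libraries. Its call was kept in 8 of 18 alternative settings. Of 14 neural stem and progenitor genes, 7 were called higher, such as Sox2, at 6.74, 6.38 and 5.30 against 5.39, 4.34 and 3.98 (1.57 ± 0.24, limma adjusted p = 0.00675), Sox3 (1.90) and Dcx (1.41). Of these 14, 0 were called without the tumor as a block, 1 without T3 and 2 without the GAL1+ library of T4. Of 10 astrocyte genes, the 2 called higher were S100b (1.37 ± 0.25), which oligodendrocytes also make, and Aldoc (1.26), and Gfap (0.65) and Gja1 (-0.17) were not called.

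Cholesterol synthesis, on which myelin formation draws, was higher in PDGFRA- cells for 16 of 19 genes measured, with a median log2 fold change of 0.83 (0.76, 1.25 and 0.54 by tumor). Idi1 was at 5.58, 5.02 and 4.21 log2 CPM against 4.41, 3.36 and 3.45 (1.20 ± 0.19, limma adjusted p = 0.00704). Lss (1.32), Fdft1 (1.29) and Sqle (1.25), which make squalene and turn it into lanosterol, had the largest differences of the list. The mean level of these genes was 5.69 to 6.29 in PDGFRA+ cells, 4.92 to 6.02 in the PDGFRA- sort and 4.33 to 5.27 in the GAL1+ sort. In each tumor it was highest in GAL1- cells (6.08 to 6.54). Of the 19 genes, 18 were called lower in PDGFRA- than in GAL1- cells. Without the tumor as a block none of the 19 was called, without T3 3 were and without the GAL1+ library of T4 4. Of 25 hypoxia and glycolysis genes 4 were called higher, among them Ddit4 (0.98 ± 0.13) and Slc2a3 (0.82), and 2 lower, Hk2 (-0.87) and Egln3 (-0.36), shares near the background of all genes.

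Lysosome genes were lower in PDGFRA- cells. Of 24 lysosome and cathepsin genes, 22 were called lower and 0 higher, with a median log2 fold change of -1.25 and medians of -1.31, -1.98 and -0.59 in T3, T4 and T5. Cd63, a membrane protein of late endosomes, was at 7.31, 7.26 and 7.69 log2 CPM in PDGFRA- cells and at 8.0, 8.26 and 8.64 in GAL1+ cells (-0.88 ± 0.13, limma adjusted p = 0.00638). The cathepsins Ctsd, Ctss, Ctsc and Ctsb were lower by values from -1.79 to -1.50, and Ctsh (-1.25) and Ctsk (-0.50) were the genes not called. The number called lower was 3 without the tumor as a block, 2 without T3, 1 without the GAL1+ library of T4 and 23 without the PDGFRA- library of T5.

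Part of the microglia, macrophage and leukocyte markers were also called lower. Of 10 microglia genes 7 were called lower (median -1.80; -1.62, -3.11 and -0.62 by tumor), and their summed level was 327 to 1269 CPM in the PDGFRA- libraries and 1832 to 2520 CPM in the GAL1+ libraries. P2ry12 (-1.81), P2ry13 (-2.19), Gpr34 (-1.99) and Sall1 (-0.74) were among those called, and Cx3cr1 (-1.67), Fcrls (-1.78) and Tmem119 (-1.35) were not. Olfml3, a secreted glycoprotein of microglia, was at 5.21, 5.60 and 6.21 log2 CPM against 6.72, 7.35 and 7.0 (-1.35 ± 0.24, limma adjusted p = 0.00947). Of 12 monocyte and macrophage genes 6 were called lower, including the scavenger receptor Cd163 (-2.16 ± 0.52), Lyz2 (-1.45) and Cd14 (-1.42), and their summed level was 1036 to 5137 CPM against 4583 to 5887 CPM. Of 12 genes common to all leukocytes 3 were called lower, Laptm5 (-1.51), Arhgdib (-1.54) and Itgb2 (-1.47), and all 12 had a negative log2 fold change. No defining marker of these 3 lists was at 0 in any of the 6 libraries. Against GAL1- cells, PDGFRA- cells had 12 of 12 leukocyte, 8 of 10 microglia and 11 of 12 macrophage genes called higher (medians 3.14, 2.93 and 4.27). Against PDGFRA+ cells these medians were 0.27, -0.20 and 0.48, with 0 genes called. In T5 the PDGFRA- library held 3544 CPM of the leukocyte genes and the GAL1+ library 4432 CPM, against 806 and 3790 CPM in T4. The part of immune cells in the lysosome difference was not tested. Without the tumor as a block, 0 of 12 leukocyte, 1 of 10 microglia and 0 of 12 macrophage genes were called, without the GAL1+ library of T4 also 0, 1 and 0, and without the PDGFRA- library of T5, 11, 10 and 8 were.

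Gene groups of innate immunity were examined next. Of 14 Toll-like receptor genes and co-receptors 7 were called lower, led by Tlr2, a receptor for bacterial lipoproteins, at 6.52, 5.59 and 7.05 log2 CPM against 8.24, 8.62 and 8.29 (-2.0 ± 0.43, limma adjusted p = 0.0165). Of 15 complement genes 7 were called lower. C1qa, which microglia make, was at 8.51, 7.58 and 9.99 against 10.14, 10.58 and 10.78 (-1.81 ± 0.53, limma adjusted p = 0.0409). Of 15 TNF and NF-kB genes 11 were called lower with a median of -1.03, among them Nfkb1 (-1.08 ± 0.19), the feedback inhibitor Tnfaip3 (-1.03 ± 0.25) and Icam1 (-1.15), while Tnf itself (-1.30) was not called. Of these 15, 2 were called without the tumor as a block, without T3 0 and without the GAL1+ library of T4 1, and of the Toll-like receptor and complement genes 1 each was called without the block and 0 without T3 or without that library. Of 9 Fc gamma receptors and adaptors 4 were called lower, and of 12 myeloid transcription factors 3, Irf5 (-1.47), Cebpb (-1.37) and Bhlhe41 (-0.74). The scavenger and alternative activation genes had 6 of 11 lower, for example Cd36 (-2.01) and Mrc1 (-1.58), and the lipid-associated myeloid genes 6 of 15, for example Lpl (-1.37) and the cholesterol exporter Abca1 (-1.28 ± 0.21). Il1a was lower by -2.11 ± 0.62, and Il1b, at 8.38, 7.76 and 9.78 against 9.43, 9.95 and 9.77, was not called. None of 10 MHC class II genes was called, with a median of -1.04 and medians of -0.61, -2.20 and -0.29 by tumor. Of 23 interferon-stimulated genes 2 were called lower, Oasl1 (-1.35) and Ifih1 (-0.78), and the median changed sign between T4 (-0.68) and T5 (0.36).

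Chemokines and growth factors of myeloid cells were examined because they link tumor cells with the immune infiltrate. Csf1, which sustains macrophages, was at 6.60, 6.56 and 6.84 log2 CPM in PDGFRA- cells and at 7.83, 8.19 and 7.84 in GAL1+ cells (-1.29 ± 0.17, limma adjusted p = 0.00506). Its call was kept in 18 of 19 alternative settings. Its receptor Csf1r (-1.69 ± 0.51) and the receptor Csf3r (-1.38 ± 0.39) were lower as well. Of 12 genes that the study lists under neutrophil chemotaxis, 4 were called lower and 0 higher, namely Ccl8 (-2.06 ± 0.55), Ccl12 (-1.75), Ccl6 (-1.72 ± 0.37) and Csf3r, with a median of -1.20 (-1.48, -1.95 and -0.30 by tumor); the study chose that list on these samples. Cxcl2, a ligand for neutrophils, was at 6.63, 5.71 and 8.28 against 7.71, 7.01 and 7.79 and was not called (-0.63 ± 0.35). Of the CXC chemokines, Cxcl1 (-0.81), Cxcl10 (-1.21 ± 0.27) and Cxcl13 were lower. In contrast, 3 CC chemokines were higher, Ccl17 (1.95 ± 0.39, limma adjusted p = 0.0129), Ccl1 (2.47 ± 0.74) and Ccl25 (0.69). Ccl17, which dendritic cells make to attract T cells, was at 2.63, 1.64 and 2.20 against 0.40, 0.21 and 0.01, and Ccl1 had 4, 1 and 5 reads in the GAL1+ libraries.

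The markers of lymphocytes, dendritic cells and neutrophils were examined as well. Of 9 T and NK cell genes 3 were called higher in PDGFRA- cells, Cd2 (1.54 ± 0.46), Cd3g (1.53) and Lck (1.38 ± 0.26, limma adjusted p = 0.0119), and the median was 1.06 (1.18, 1.69 and 0.52 by tumor). Their summed level was low, 40.3 to 60.0 CPM in the PDGFRA- libraries and 30.5 to 50.6 CPM in the GAL1+ libraries, so that the ranges overlapped. Tigit, an inhibitory receptor of T and NK cells, was at 1.84, 1.69 and 2.20 log2 CPM against -0.05, -0.40 and 0.41 (1.92 ± 0.38, limma adjusted p = 0.0125), and Ctla4 was higher by 1.37. The other checkpoint genes that were called were lower, among them Lag3 (-1.89 ± 0.45), Cd86 (-1.60), Vsir (-1.41) and Cd274 (-1.31), which encodes PD-L1. Flt3, a growth factor receptor of dendritic cells, was at 3.41, 2.93 and 4.08 against 1.52, 2.04 and 1.15 (1.90 ± 0.44, limma adjusted p = 0.0194), while Xcr1 (0.17), Zbtb46 (-0.24), Ccr7 (0.53), Batf3 (-0.46) and Clec10a (0.13) were not called. Without the tumor as a block 1 of the 9 T and NK cell genes was called, and without T3 or without the GAL1+ library of T4 none. Of the neutrophil genes only Csf3r, which macrophages also express, was called, and S100a8 and S100a9 differed by 0.30 and 0.08. The 2 B cell genes, Ighm (-0.78) and Igkc (1.86), and the 5 erythroid genes were not called.

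Genes of vessels, stroma and the mesenchymal state showed small differences. All 12 endothelial genes had negative values (median -0.63), of which Tie1 (-0.83 ± 0.25) was called, and their summed level was 285 to 339 CPM in PDGFRA- and 363 to 534 CPM in GAL1+ libraries. None of 11 mural cell genes was called. Of 7 fibroblast genes only Col6a3 was called. Of 19 mesenchymal state genes 3 were called lower, including Fn1 (-1.19 ± 0.36) and Plaur (-1.11). Cd44 (-0.34), Vim (0.17) and Anxa2 (-0.22), which mark this state in tumor cells, were not called. Of the 7 galectin genes, Lgals3bp, a binding partner of galectins, was at 6.79, 7.06 and 8.27 against 8.10, 9.12 and 9.03 (-1.37 ± 0.26, limma adjusted p = 0.0112), Lgals9 was lower by -1.10, and Lgals3 (-0.99) and Lgals8 (-0.40) were not called.

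Few housekeeping and proliferation genes were called. None of 79 cytosolic ribosomal protein genes was called, although all 79 had a negative value, 70 with quantile scaling (median -0.30; -0.09, -0.65 and -0.14 by tumor). None of 56 nuclear and 13 mitochondrially encoded respiratory chain genes was called, with medians of -0.12 and -0.08, the second of which was 0.15 with quantile scaling. In T3, T4 and T5 the medians were 0.09, -0.32 and -0.17 for the nuclear genes. For the mitochondrially encoded genes they were 0.34, 0.04 and -0.66, so the sign changed between tumors. Of 20 S phase genes the replication clamp Pcna was called lower (-0.77 ± 0.18), and of 24 genes of the G2 and M phases Mki67, at 9.39, 8.4 and 8.4 log2 CPM against 9.60, 9.08 and 8.96 (-0.48 ± 0.13, limma adjusted p = 0.0309). Of 17 immediate early genes, Egr1 (0.96 ± 0.17), Fos (0.63) and Jun (0.63) were higher and Klf2 (-1.19) and Atf3 (-0.82) lower. Of 18 heat shock and unfolded protein response genes, Hspa5, the main chaperone of the endoplasmic reticulum, was called lower (-0.44 ± 0.12), and Hspa1a (0.03) and Dnajb1 (0.04) were not called.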

How the data were processed

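Sorted EGFR+ cells of 3 GBMs were sequenced from total RNA with a stranded SMARTer pico input kit. Per the labels and the study's methods, the authors trimmed reads with fastp, aligned them to mm39 with STAR, counted reads over exons with featureCounts, splitting multimapping reads, kept genes above 1 CPM in at least 3 samples and deposited log2 CPM after TMM scaling and voom (offset 0.5). Splitting makes recovered reads fractional, so values of near-identical genes are uncertain. How strand was used in counting is not given in the sources used here.

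The deposited log2 values were fitted with limma 3.58.1 in R 4.3.3 (all 12 libraries, tumor as a block, eBayes with trend), two-sided, with Benjamini-Hochberg adjustment over 18180 genes; called means an adjusted p under 0.05. Because T3, T4 and T5 are the tumors of origin, the libraries were treated as paired; deviations of paired libraries from their group means correlated at 0.608, 0.367 and 0.536. Values ± are standard errors, n = 3 tumors per population. The labels do not say whether each tumor is 1 mouse. Scripts were tested on simulated data. Counts per library are total reads recovered from the deposited values, and a value of 3 reads or less was taken as the floor; intervals of counting error were not computed.

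The gene lists and the members of the comparison were chosen with earlier results of these data known. Named genes were Pdgfra, Lgals1, Egfr, Ptprc and Cdkn2a, the 8 largest called differences in each direction with at least 50 reads in every library of the higher group, the same direction in all tumors and no predicted symbol, and per list the called members with the smallest adjusted p and the largest change and the member with the highest level; other list members were named after their values were seen, and some genes that this rule takes are not reported here. Alternatives were the fit without the block, on 6 libraries, without trend, robust, with voom weights, with a pseudocount of 1, with filters at log2 CPM 1 and 3, with quantile and median scaling, with a fold threshold of 1.5, and without each tumor or library. Figures were drawn with matplotlib 3.10.9.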

Additional observations from a re-analysis of the deposited data

How the results depend on the processing

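The counts depended on how the tumors were handled. The main fit called 3652 genes (2395 higher, 1257 lower in PDGFRA- cells). Without the tumor as a replicate block, that is, without the paired design, 725 (619 and 106) were called. With only the 6 libraries 1893 (1313 and 580) were called, of which 1747 were among the 3652. Without 1 tumor or 1 library the counts ran from 0 to 5837 (higher from 0 to 3405, lower from 0 to 2432). The genes called lower numbered 767 without a trend and 2178 with median centring. The other scaling, the filters, the pseudocount, voom weights, robust eBayes and a fold threshold of 1.5 (at an adjusted or unadjusted p under 0.05) kept the counts within 1.5 times. With no replicate block, PDGFRA- and PDGFRA+ cells again had 0 genes called by limma (640 at an unadjusted p under 0.05). The causes were not tested.

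Among the genes of the sort and genotype, Egfr was not called with no replicate block (1.04), without a trend (1.04), with robust eBayes (1.04) or with median centring (0.90), and Cdkn2a not with no replicate block (1.02). Ptprc was called with voom weights (-1.18), with either filter (-1.19) and with median centring (-1.33), Pdgfra with quantile scaling (1.25) and Lgals1 with median centring (-0.70). Leaving out 1 tumor or library gave 0.76 to 1.51 for Egfr, 0.86 to 1.31 for Cdkn2a, -1.61 to -0.60 for Ptprc, 0.74 to 1.63 for Pdgfra and -0.87 to -0.27 for Lgals1. All 124 named genes that were called kept their direction in every alternative that gave them a value, 717 of 3162 gene values lost the call and 39 gained it. Of 61 list medians 51 kept their sign, and those of the dendritic, neutrophil, B cell, erythroid, Notch, collagen, metalloproteinase, hypoxia, heat shock and mitochondrially encoded lists did not. Depth limits genes with 3 reads or fewer in a library, such as Opalin and Nkx6-2.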

Other observations

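A pair of short motifs was counted in the 250 bases upstream of RefSeq gene starts (build GRCm38.p6, while the files use mm39), on both strands. The motif CAGCTG, a palindromic E-box read by bHLH factors, was in 14.7% of 2359 windows of genes called higher in PDGFRA- cells, in 12.3% of 1239 windows of genes called lower and in 12.5% of 15613 windows of the genes tested, against 13% of all 32851 windows. The motif GAGGAAGT, which the myeloid factor PU.1 binds, was in 1.36%, 3.07% and 2.53% of these windows and in 2.44% of all. Windows were found for 1751 of 2395 genes called higher and 942 of 1257 called lower, and no test was made of these shares.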
